A study of Rattus norvegicus with 6 samples.

Results

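The 5 immediate early genes described here were taken by a fixed list of Ensembl identifiers with their symbols: Fos (ENSRNOG00000008015), Junb (ENSRNOG00000042838), Egr1 (ENSRNOG00000019422), Arc (ENSRNOG00000043465) and Nr4a1 (ENSRNOG00000007607). All 5 of 5 were found among the 17581 genes of the count table. Immediate early genes are switched on within minutes of a stimulus, from promoters that are already poised, and need no new protein for it. In neurons they are driven by calcium and growth factor signals through the transcription factors CREB and SRF, and their transcripts decay quickly. They are widely used as a readout of recent neuronal activity, stress or growth factor signalling in the brain.

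The libraries came from forebrain of Wistar rat fetuses at gestational day 18, all labelled male. The protocol speaks of both sexes, and the sex of the libraries was not checked. Control dams received the vehicle with 0 µg FM550, and high-dose dams received 1000 µg FM550 per day, about 3.3 mg/kg body weight. FM550 is a flame retardant sold for polyurethane foam, in which brominated compounds are blended with organophosphates. The dose was fed on a treat for 10 days from gestational day 9, and was set by an average colony weight, not by each dam's own. Tissue was collected 4 hours after the last dose. There were 3 control and 3 high-dose libraries, with totals of 10525138 to 27100394 counts. High-dose replicate 2 stood apart most often, with the highest value in 27.1% and the lowest in 24.3% of tested genes. The sources used here do not say whether fetuses came from different dams, and p-values therefore cover only how these samples spread, which may be partly technical. The forebrain label was not checked against marker genes, because the table used for names pairs no other Ensembl identifier with a symbol. For the same reason the other immediate early genes were not analysed here.

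None of the 5 genes passed the test for a difference between high-dose FM550 and control forebrain, and no pair of them passed a test for moving together from library to library. Junb was 1.13-fold and Nr4a1 1.11-fold of control by the fit, while Fos, Egr1 and Arc were 0.969-fold, 0.971-fold and 0.808-fold. edgeR's quasi-likelihood test called 0 of the 5 at a Benjamini-Hochberg adjusted p under 0.05, against 0.00734% of the 13617 genes tested. It also gave 0 of the 5 an unadjusted p under 0.05, against 7.4% of all genes. DESeq2 called 0 of the 5, against 1.28% of its 15515 genes, and limma-voom 0 of the 5, against 0.00734%. All 5 genes had the same edgeR adjusted p of 0.999. In whole forebrain, fewer cells of a type and less RNA per cell cannot be told apart. All passed the filter on low counts, Fos in 2 control and 2 high-dose libraries and the other 4 genes in every library.

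Levels are given as CPM, counts scaled to a common library total after TMM adjustment, which are not divided by gene length, so levels of different genes are not compared. Each library's value carries a 95% exact Poisson interval, which covers counting error only.

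Among the transcription factors, Fos, which pairs with Jun proteins to form the AP-1 factor, rested on the fewest reads. Its counts were 1, 21 and 18 in control replicates 1, 2 and 3, and 31, 19 and 3 in high-dose replicates 1, 2 and 3. In CPM these were 0.0801, 1.22 and 1.40 in controls and 1.13, 1.05 and 0.284 in high-dose libraries. Control replicate 1 and high-dose replicate 3 were low, the other 4 libraries lay close to each other, and the groups overlapped fully. The upper limit of control replicate 1, 0.446 CPM, lay below the lower limits of control replicates 2 and 3, 0.753 and 0.831 CPM. Control replicate 3 was 17.5 times control replicate 1, with a counting interval of 2.76 to 729, and high-dose replicate 1 was 4.0 times high-dose replicate 3, with an interval of 1.25 to 20.4. The 2 low libraries also had the smallest totals, 12457758 and 10525138 counts, while control replicate 3, with 13019956 counts, held 18 Fos reads.

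Fos thus varied far more within each group than between the groups. Controls averaged 0.900 ± 0.716 CPM, and the high-dose group averaged 0.822 ± 0.468 CPM (SD, n = 3 each). The log2 fold change, high-dose over control, was -0.05 ± 0.70 (standard error), with a 95% interval of -1.64 to 1.55. That interval runs from 3.12-fold lower to 2.93-fold higher, and the fit does not exclude a change inside that range. Its sign turned with the libraries kept. Leaving out control replicate 1 gave -0.56, control replicate 2 gave 0.25, control replicate 3 gave 0.34 and high-dose replicate 3 gave 0.25.

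Junb, another AP-1 subunit, which often acts as a brake on its relative Jun, was the steadiest of the 5. Its control values were 6.89, 6.78 and 6.31 CPM, on 86, 117 and 81 counts. The high-dose values were 6.96, 7.50 and 8.23 CPM, on 190, 136 and 87 counts. Every high-dose library lay above every control library, though by only a small step, and the counting intervals of all 6 overlapped. Such a separation of the groups, in either direction, was found in 11.7% of all tested genes, and Junb was the only 1 of the 5 to show it. Junb averaged 6.66 ± 0.309 CPM in controls, and its high-dose mean was 7.56 ± 0.641 CPM (SD, n = 3 each). The log2 fold change was 0.18 ± 0.15 (standard error), with a 95% interval of -0.17 to 0.52 (edgeR unadjusted p = 0.278, adjusted p = 0.999). A rise of more than 1.43-fold and a fall of more than 1.13-fold lay outside this interval.

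Egr1, a zinc-finger transcription factor also called Zif268 that responds to synaptic and growth factor signals, had a wider spread in the high-dose group than in the controls. It stood at 3.61, 4.52 and 4.05 CPM in control replicates 1, 2 and 3, on 45, 78 and 52 counts. In high-dose replicates 1, 2 and 3 it stood at 2.60, 5.74 and 3.6 CPM, on 71, 104 and 38 counts. The lowest and the highest of the 6 libraries were thus both high-dose, with the 3 controls between them. High-dose replicate 2 was 2.21 times high-dose replicate 1, with a counting interval of 1.62 to 3.03. The high-dose SD was 1.60 CPM around a mean of 3.98, and the control SD 0.458 CPM around a mean of 4.06 (n = 3 each). The log2 fold change was -0.04 ± 0.30 (standard error), with a 95% interval of -0.73 to 0.65 (edgeR unadjusted p = 0.891, adjusted p = 0.999). Leaving out high-dose replicate 1 made it 0.22, and leaving out high-dose replicate 2 made it -0.44, neither past the threshold.

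Nr4a1, an orphan nuclear receptor also called Nur77, varied mainly within the controls. Control replicates 1, 2 and 3 were at 1.68, 3.36 and 2.02 CPM, on 21, 58 and 26 counts. High-dose replicates 1, 2 and 3 were at 2.60, 3.2 and 2.08 CPM, on 71, 58 and 22 counts. All 3 high-dose values fell inside the range of the controls. Control replicate 2 was 2.0 times control replicate 1, with a counting interval of 1.19 to 3.47. Nr4a1 averaged 2.36 ± 0.887 CPM in controls, against 2.63 ± 0.559 CPM at the high dose (SD, n = 3 each). The log2 fold change was 0.15 ± 0.31 (standard error), with a 95% interval of -0.57 to 0.87 (edgeR unadjusted p = 0.645, adjusted p = 0.999). It was 0.51 without control replicate 2, where it was still not past the threshold.

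Arc differs from the other 4 in its role: it is no transcription factor but a synaptic protein that forms virus-like capsids and helps to remove AMPA receptors from the synapse. Its control values were 1.84, 2.38 and 2.02 CPM, on 23, 41 and 26 counts. Its high-dose values were 2.27, 1.77 and 0.757 CPM, on 62, 32 and 8 counts. High-dose replicate 3 was low, while the other 2 high-dose libraries lay at or near the controls. High-dose replicate 1 was 3.0 times high-dose replicate 3, with a counting interval of 1.43 to 7.25. Arc averaged 2.08 ± 0.271 CPM in controls, against 1.60 ± 0.770 CPM at the high dose (SD, n = 3 each). The log2 fold change of -0.31 had a standard error of 0.37 and a 95% interval of -1.14 to 0.53 (edgeR unadjusted p = 0.423, adjusted p = 0.999). Leaving out high-dose replicate 3 brought it to -0.04, and leaving out high-dose replicate 1 brought it to -0.65.

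**Figure D1:**
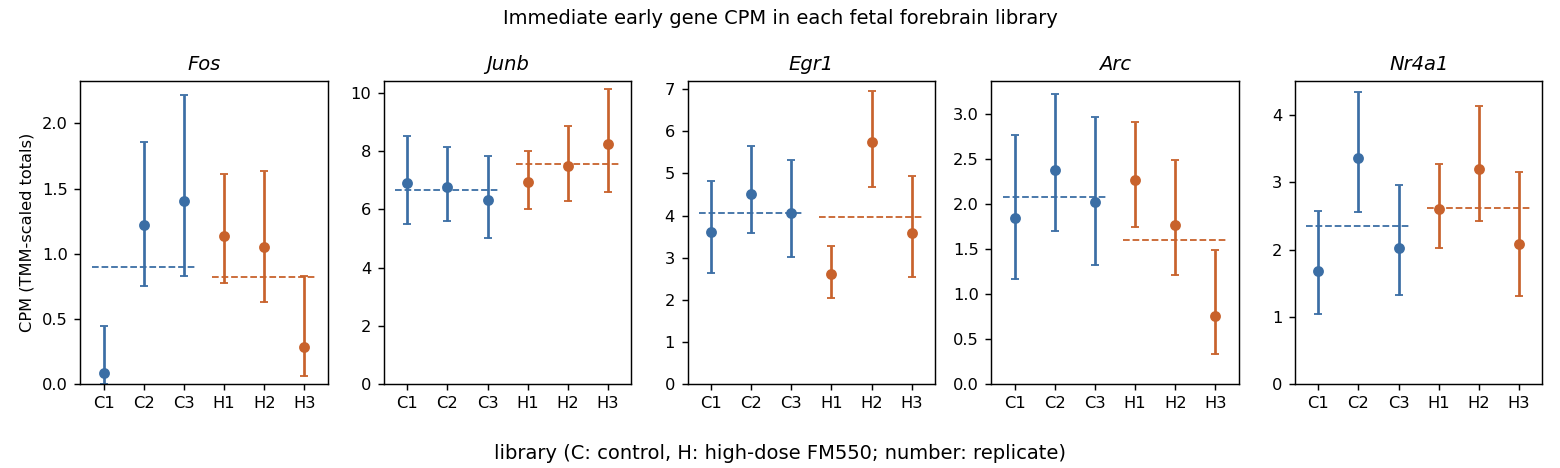
CPM of each gene (y axis, starting at 0, scaled panel by panel) in control (C1 to C3, blue) and high-dose FM550 (H1 to H3, orange) libraries on the x axis, where bars are 95% exact Poisson intervals of the count and dashed lines are group means. Fos is low in C1 and H3, Egr1 is lowest in H1 and highest in H2, Arc is low in H3, and Junb is nearly level.

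Each of the 5 differences was smaller than its standard error, except that of Junb. The median size of the 5 log2 fold changes was 0.15 with a median standard error of 0.31, against 0.09 and 0.13 over the 13617 tested genes. By the sign of the fit, 2 genes were higher and 3 lower, with a median of -0.04 against 0.00 over all genes.

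**Figure D2:**
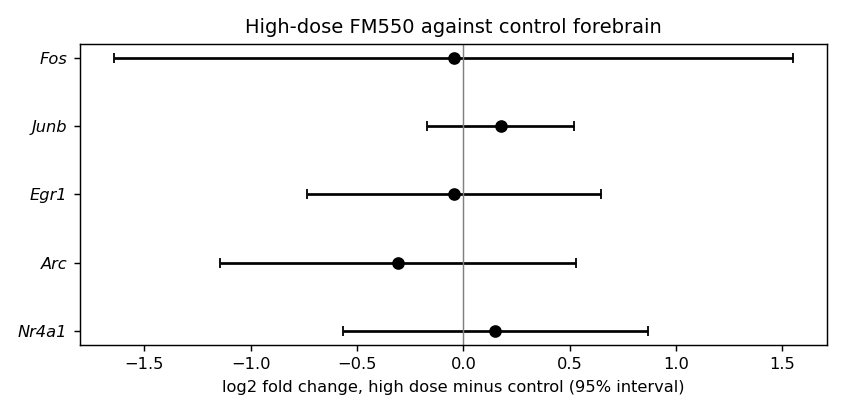
Log2 fold change of each gene (y axis) in high-dose relative to control forebrain (x axis), with points for the edgeR estimate from 3 against 3 libraries and bars for its 95% interval. All 5 intervals include 0, from the narrowest in Junb (-0.17 to 0.52) to the widest in Fos (-1.64 to 1.55).

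The spread between libraries, regardless of group, set Fos and Junb at opposite ends. The coefficient of variation (CV) of CPM over the 6 libraries was 63.0% for Fos, above that of 98.9% of tested genes. It was 31.6% for Arc, 27.3% for Nr4a1, 26.3% for Egr1 and 9.41% for Junb, against a median of 10.9% over all tested genes. Low counts alone give a high CV, so each was set against the CV that Poisson counting at these depths would give. Fos had 2.26 times its counting CV of 27.9%, Egr1 2.03 times 12.9%, Nr4a1 1.66 times 16.4% and Arc 1.65 times 19.1%. Junb, at 0.969 times its counting CV of 9.71%, varied no more than counting would give, a ratio below that of all but 7.63% of tested genes. The median ratio over all tested genes, not matched for abundance, was 2.01. Fos and Egr1 were close to that median and Arc and Nr4a1 somewhat below it. edgeR's own estimate of the variation beyond counting was 55.0% for Fos, where the trend for genes of its abundance was 24.6%. For Junb it was 12.3% against a trend of 18.1%, and the other 3 genes lay between 23.2% and 25.7%.

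**Figure D3:**
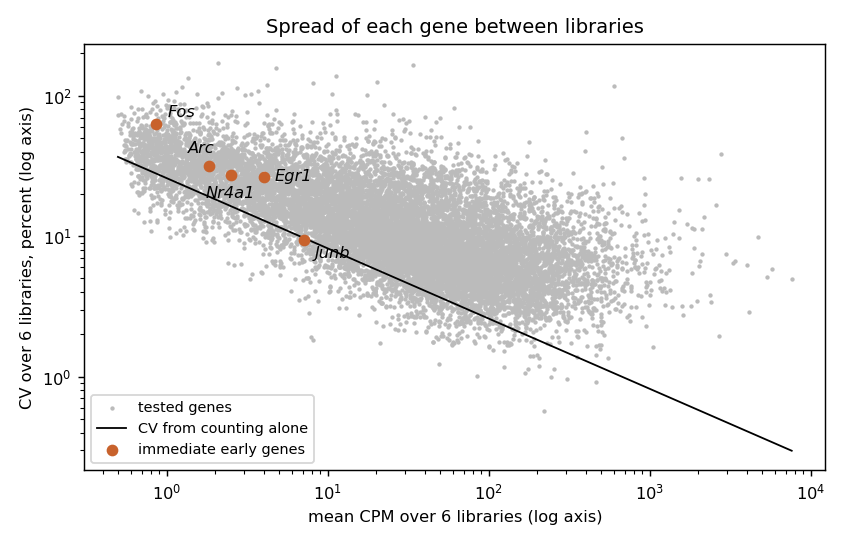
CV of CPM over the 6 libraries (y axis, percent, log axis) against mean CPM (x axis, log axis) for the tested genes (grey), with the 5 immediate early genes in orange and the CV from counting alone as a line. Fos stands 2.26 times above the line and Junb on it, at 0.969 times.

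The next question was whether the genes move together across the 6 libraries. No library was high or low for all 5. Control replicate 1 held the lowest Fos and Nr4a1, high-dose replicate 3 the lowest Arc and the highest Junb, high-dose replicate 1 the lowest Egr1 and control replicate 3 the lowest Junb and the highest Fos. Control replicate 2 held the highest Arc and Nr4a1, and high-dose replicate 2 the highest Egr1. Fos and Arc shared a low value in high-dose replicate 3, at 3 and 8 counts, but in control replicate 1 Fos was at 1 count and Arc at 23 counts, close to its 26 in control replicate 3.

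**Figure D4:**
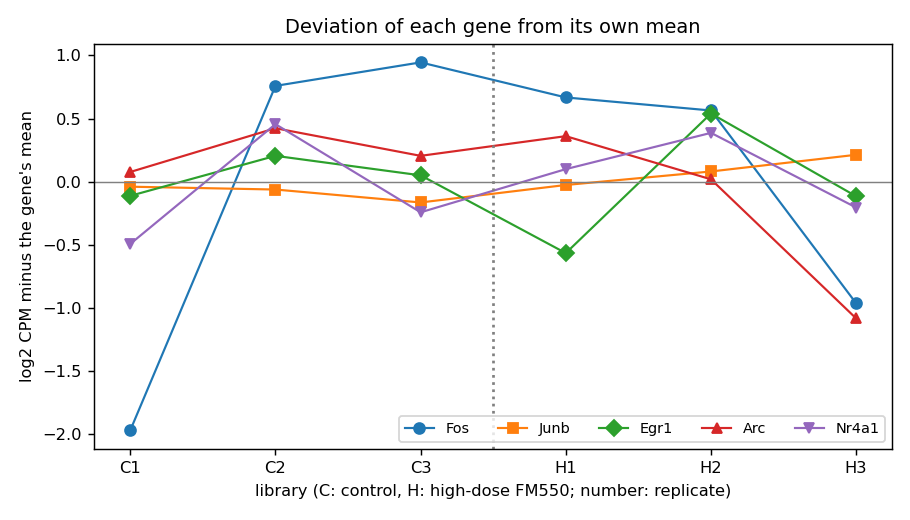
Log2 CPM of each gene minus its own mean over the 6 libraries (y axis) in control (C1 to C3) and high-dose (H1 to H3) libraries (x axis), where each marker shape and colour is 1 gene and lines only guide the eye. Fos lies at -1.97 in C1 and -0.96 in H3, Arc at 0.08 and -1.08, and Junb at -0.04 and 0.21.

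Of the 10 pairs of genes, 8 correlated positively and 2 negatively in log2 CPM over the 6 libraries, and none passed the test after adjustment. The median Pearson's r was 0.141, with a range from -0.836 to 0.702, while the median over all pairs of tested genes was 0.00. An r of at least 0.5 was found in 2 of the 10 pairs and in 19.4% of all pairs of tested genes, where 6 libraries leave r imprecise. The exact permutation test over all 720 pairings of the libraries, two-sided and adjusted over the 10 pairs, gave adjusted p of 0.444 or more for Pearson's r and 0.583 or more for Spearman's rho. All 10 values share the same libraries, and counting error can weaken a correlation. That bears most on Junb, whose spread was 0.969 times its counting CV. Fos had the fewest reads, but its spread was 2.26 times its counting CV.

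The highest correlation was that of Fos with Nr4a1, at r = 0.702 (exact permutation p = 0.138, adjusted p = 0.688) and rho = 0.371 (exact permutation p = 0.497, adjusted p = 0.823). The 2 libraries of lowest Fos were control replicate 1 and high-dose replicate 3. Leaving both out gave r = -0.726, but Fos spanned only 1.05 to 1.40 CPM in the libraries that remained. Their counting intervals for Fos overlapped, so nothing is read from that value. With every library thinned to the same total, r of Fos with Nr4a1 was 0.307. Of the other tested genes, 4.10% correlated at least as highly with Fos as Nr4a1 did. Fos with Arc had r = 0.505 and rho = 0.657 (exact permutation p = 0.260 and 0.175, adjusted p = 0.825 and 0.583). Without the same 2 libraries its r was 0.305, over the same narrow range of Fos, so nothing is read from it.

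The most negative was that of Junb with Arc, at r = -0.836 (exact permutation p = 0.0444, adjusted p = 0.444) and rho = -0.714 (exact permutation p = 0.136, adjusted p = 0.583). Without high-dose replicate 3 and control replicate 3, the libraries farthest from the median of Junb, r was -0.700. Junb spanned only 6.78 to 7.50 CPM there, with overlapping counting intervals, so nothing is read from that value. As deviations from the group means r was -0.830, and after thinning it was -0.640. In the libraries other than control replicate 1 and high-dose replicate 3 it was -0.448. Over all 6 libraries Junb varied no more than counting would give, at 0.969 times its counting CV. The AP-1 partners Fos and Junb had r = -0.390 and rho = -0.657 (exact permutation p = 0.413 and 0.175, adjusted p = 0.825 and 0.583). The 2 libraries farthest from the median of Fos are again control replicate 1 and high-dose replicate 3. The 4 others gave r = -0.983, but Fos spanned only 1.05 to 1.40 CPM there, with overlapping counting intervals, so nothing is read from that value.

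Egr1 followed none of the others closely. Its r was 0.449 with Nr4a1, 0.211 with Fos, 0.0717 with Junb and 0.0194 with Arc (exact permutation p = 0.378, 0.668, 0.901 and 0.960, adjusted p = 0.825, 0.954, 0.960 and 0.960), with rho of 0.429, 0.257, -0.257 and 0.0286 (adjusted p = 0.823, 0.823, 0.823 and 1 by the same exact test). Without high-dose replicates 1 and 2, the farthest libraries for Egr1, r with Nr4a1 was 0.878 and r with Arc 0.699. In the libraries other than control replicate 1 and high-dose replicate 3, the same values were 0.438 and -0.617, and after thinning they were 0.433 and -0.0700. The sign of Egr1 with Arc thus turned with the libraries kept. Nr4a1 had an r of 0.355 with Arc and 0.0660 with Junb (exact permutation p = 0.582 and 0.910, adjusted p = 0.954 and 0.960), and rho of 0.371 and 0.143 (adjusted p = 0.823 and 0.892 by the same exact test). Averaged over its 4 partners, r was highest for Nr4a1, at 0.393, and lowest for Junb, at -0.272.

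**Figure D5:**
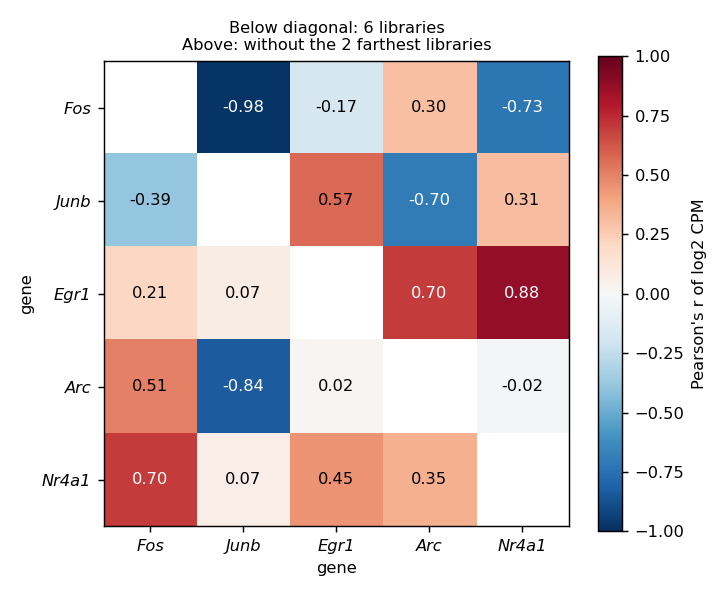
Pearson's r of log2 CPM for each pair of genes (both axes), from -1 (blue) to 1 (red), over the 6 libraries below the diagonal and without the 2 libraries farthest from the median of the row's gene above it. Fos with Nr4a1 is 0.70 below the diagonal and -0.73 above it, where Fos spans only a narrow range. Junb with Arc is negative in both, at -0.84 and -0.70, though Junb spans only a narrow range above the diagonal.

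The tested genes most like the 5 in pattern were ENSRNOG00000020250 and ENSRNOG00000012579, with a mean r of 0.537 and 0.530 over the 5 genes and 6 libraries. In that order, r was 0.941 and 0.958 with Nr4a1, 0.810 and 0.635 with Fos, 0.609 and 0.629 with Egr1, 0.382 and 0.378 with Arc and -0.0546 and 0.0516 with Junb. Being taken for their likeness, they carry no test. ENSRNOG00000020250 stood at 15.5, 20.6 and 18.2 CPM in control replicates 1, 2 and 3 and at 18.4, 21.6 and 16.8 CPM in high-dose replicates 1, 2 and 3. ENSRNOG00000012579 stood at 2.16, 3.01 and 2.34 CPM in controls and at 2.56, 3.25 and 2.27 CPM in high-dose libraries, in the same order of replicates.

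The promoters of the 5 genes were then described. A RefSeq table (build GRCr8, whereas the counts used rn6) held Junb, Egr1 and Nr4a1, 3 of the 5, by symbol. The 250 bases before the start were searched on both strands for the CRE bound by CREB (TGACGTCA), its core TGACG, the CRE variant TGCGTCA, the AP-1 site TGANTCA, the EGR site GCGNGGGCG, the TATA box TATAAA, the CCAAT box (those letters) and, by name, the CArG box bound by SRF. Junb and Nr4a1 are shown because their promoters hold different matches, with matches in capitals, 5′ to 3′ on the + strand, at chr19:40080876-40081125 for Junb and chr7:134259888-134260137 for Nr4a1.
Junb: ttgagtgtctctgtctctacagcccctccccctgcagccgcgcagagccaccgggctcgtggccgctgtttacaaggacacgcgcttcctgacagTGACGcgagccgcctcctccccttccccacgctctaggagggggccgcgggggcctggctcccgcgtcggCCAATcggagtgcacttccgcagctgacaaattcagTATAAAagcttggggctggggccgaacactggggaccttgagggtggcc
Nr4a1: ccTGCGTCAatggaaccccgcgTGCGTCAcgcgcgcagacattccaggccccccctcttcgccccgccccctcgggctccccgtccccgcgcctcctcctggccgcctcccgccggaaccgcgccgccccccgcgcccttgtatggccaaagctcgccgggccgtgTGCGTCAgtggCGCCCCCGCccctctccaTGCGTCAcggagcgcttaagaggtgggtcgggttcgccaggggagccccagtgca

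Nr4a1 held 4 copies of TGCGTCA, which were read in its own promoter before they were counted. At least 1 copy occurs in 1.66% of 33469 promoter windows. Each share of windows given here counts windows with at least 1 match, however many they hold. Read on the other strand each of the 4 copies in Nr4a1 contains the core TGACG, whose 4 matches are the same 4 places. Nr4a1 also held 1 EGR site, found in 4.29% of windows, on the minus strand. Junb held 1 core TGACG (18.2% of windows), 1 TATAAA (12.9%) and 1 CCAAT (34%). Egr1 held 2 CArG boxes (1.5% of windows), 2 cores TGACG and 1 CCAAT. None of the 3 windows matched the full CRE (1.59% of windows) or the AP-1 site (6.34%). A match describes the letters only, and binding was not measured.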

How the data were processed

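The authors deposited 1 table of raw read counts per gene, whole numbers that were not normalized. The tools listed per the submitters' processing notes are FastQC, STAR and HTSeq, with build rn6. Their versions, the annotation and the counting's strand setting are not given there, so reads of overlapping genes may not be counted apart. Count columns were tied to samples by library name, and groups came from titles. Genes were filtered with filterByExpr (minimum count 10, minimum total 15), scaled by TMM and tested over the whole table by edgeR 4.0.16 (robust quasi-likelihood fit, group as the only term, limma 3.58.1, R 4.3.3), with Benjamini-Hochberg adjustment over 13617 genes. The standard error is the log2 fold change divided by the square root of F. Correlations used log2 CPM with a prior count of 2, and the thinned values a total of 10525138 counts per library. The thinned values came from a single random draw, and how they vary between draws was not tested. The fit was tested on simulated data. Alternatives were DESeq2 1.42.0, limma-voom, other scalings and filters, a replicate block, 1 surrogate variable (sva 3.50.0) and libraries left out. Libraries of a group differed beyond sampling noise (chi-square per degree of freedom 6.09 to 27.4). The members and lists were chosen with earlier results of these data known. The named genes are all 5 members and the 2 tested genes of highest mean r with them.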

Additional observations from a re-analysis of the deposited data

How the results depend on the processing

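None of the 5 genes passed the adjusted threshold in any of the 15 alternative fits, which called 0 to 412 genes of the whole table. Raw library totals and the correlation without control replicate 1 and high-dose replicate 3 were added after seeing the data. Near 0, the sign of the log2 fold change was not stable, and the cause was not tested. Fos was 0.066 with the replicate block and 0.40 with limma-voom. Leaving out both control replicate 3 and high-dose replicate 2 gave 0.23 for Fos and -0.11 for Nr4a1. With single libraries left out, Fos ran from -0.56 to 0.34. Egr1 ran from -0.44 to 0.22 with single libraries left out, and Nr4a1 from -0.043 to 0.51. Junb stayed above 0 and Arc below 0 in all 15 fits. The replicate block changed no call. The labels name no pairing, so the replicate numbers were not taken as pairs. Deviations of same-numbered libraries correlated at 0.227, -0.275 and -0.21. Groups that did not overlap numbered 1 of the 5, against 11.7% of all tested genes. With single libraries left out they numbered 1 to 2 of the 5. Fewer libraries make separation easier, and the share over all genes was not counted there, so nothing is read from those counts. The median r of 0.141 ran from 0.0381 to 0.374 with single libraries left out, and was -0.0556 over the 4 libraries left without both control replicate 1 and high-dose replicate 3. It was 0.0763 after thinning and 0.247 as deviations from the group means. Fos had the fewest reads, 93 over the 6 libraries against 697 for Junb. Its CV was 63.0%, where counting gives 27.9%, and the cause of its spread was not tested.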
